A study of Homo sapiens with 12 samples.

Results

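The SOCS family holds the 8 genes CISH (Entrez gene ID 1154), SOCS1 (8651), SOCS2 (8835), SOCS3 (9021), SOCS4 (122809), SOCS5 (9655), SOCS6 (9306) and SOCS7 (30837). All members were taken by name, out of 19775 genes that had a probe set with a single gene symbol, and together they had 25 such probe sets. Their RNA was followed in Jurkat, a human T cell leukaemia line, on 12 Affymetrix arrays. Cells received either a construct encoding miR-21 or its control vector. From each, RNA was taken as Total RNA, as RNA purified with an antibody to AGO2 (AGO2 IP) and as RNA purified with control IgG (IgG IP), which made 6 groups with 2 replicates each. All 6 groups share the cell line and the transduction, so no group of untouched cells was compared. The sources used here do not give the construct's promoter, nor whether cells were cloned or pooled. Per the labels' protocols, 1 ug of RNA was labelled for Total RNA and 100 ng for each IP, so the amount differed between these fractions on every array. Nothing in the labels says that the replicates came from separate cultures, and p-values measure only the spread between these samples.

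SOCS proteins are feedback inhibitors of cytokine signalling. A cytokine receptor activates JAK kinases, these phosphorylate STAT transcription factors, and STATs switch on several SOCS genes. An SH2 domain lets each SOCS protein bind phosphotyrosine, and the SOCS box recruits elongin B, elongin C and a cullin ubiquitin ligase. AGO2 is the Argonaute protein that carries a loaded miRNA to its target mRNAs, so AGO2 IP collects mRNA held by miRNAs, and IgG IP measures what sticks without the specific antibody. In T cells CISH and SOCS1 restrain signalling by interleukins, and SOCS1 and SOCS5 have been reported as miRNA targets.

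The mature miRNAs below are shown because the construct encodes miR-21, while the others have been reported to act on members: miR-155, miR-19a and miR-19b on SOCS1, miR-18a and miR-9 on SOCS5, and miR-203a on SOCS3. Sequences are from RefSeq (GRCh38.p14), 5′ to 3′, with the seed, bases 2 to 8, in capitals. The miR-21-5p sequence lies at chr17:59841273-59841294 on the plus strand. The seeds of miR-19a and miR-19b are the same and form 1 group, and the other 5 seeds differ from it and from each other. The other sequences lie at chr21:25573983-25574006 (miR-155), chr13:91350939-91350961 (miR-19a), chr13:91351245-91351267 (miR-19b), chr13:91350756-91350778 (miR-18a) and chr14:104117469-104117490 (miR-203a), on the plus strand, and at chr1:156420392-156420414 on the minus strand (miR-9). RefSeq has 1 further locus for miR-19b and 2 for miR-9. No level of these miRNAs is used here.
hsa-miR-21-5p: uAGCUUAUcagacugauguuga
hsa-miR-155-5p: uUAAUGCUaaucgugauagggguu
hsa-miR-19a-3p: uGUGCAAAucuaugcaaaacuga
hsa-miR-19b-3p: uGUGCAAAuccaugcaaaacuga
hsa-miR-18a-5p: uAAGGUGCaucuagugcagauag
hsa-miR-9-5p: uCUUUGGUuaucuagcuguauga
hsa-miR-203a-3p: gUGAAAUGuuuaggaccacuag

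With the brightest probe set of each gene, CISH and SOCS1 gave the most similar array profiles of any pair of members, as described below. Their promoters are shown to compare a motif bound by activated STATs. The motif searched was TTCNNNGAA, which reads the same on both strands. RefSeq windows (GRCh38.p14) run from 250 bases before to 50 bases after the start, and 5 of the 8 members had one: CISH, SOCS1, SOCS3, SOCS4 and SOCS6. The CISH window, chr3:50611725-50612024 on the minus strand, held 4 matches, in capitals below, which begin 241, 230, 129 and 112 bases before the start. The SOCS1 window, chr16:11256155-11256454 on the minus strand, held 0, as did both windows of SOCS3 and those of SOCS4 and SOCS6. Of 35116 promoter windows of this length, 7.66% held at least 1 match and 0.456% at least 2, and only 7 windows held 4 or more. A match describes the letters alone.
CISH: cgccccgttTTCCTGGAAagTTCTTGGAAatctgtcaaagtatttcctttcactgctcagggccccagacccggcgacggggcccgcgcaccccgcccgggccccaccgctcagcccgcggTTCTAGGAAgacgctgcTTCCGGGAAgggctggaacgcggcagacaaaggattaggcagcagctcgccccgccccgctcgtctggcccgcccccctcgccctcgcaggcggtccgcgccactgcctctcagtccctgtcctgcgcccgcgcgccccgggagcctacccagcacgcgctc
SOCS1: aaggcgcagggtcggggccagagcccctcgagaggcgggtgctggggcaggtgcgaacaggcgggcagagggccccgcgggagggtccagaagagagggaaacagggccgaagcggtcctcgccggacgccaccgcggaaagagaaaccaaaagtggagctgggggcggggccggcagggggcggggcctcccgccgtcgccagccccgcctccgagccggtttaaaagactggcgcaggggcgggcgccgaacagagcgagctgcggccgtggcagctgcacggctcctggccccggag

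Levels are given as log2 RMA values, on which a difference of 1 is a doubling of signal. The array means were 4.39 to 4.41 in replicate 1 and 5.26 to 5.27 in replicate 2, so levels are compared within a replicate number only. In replicate 2 the IP arrays grouped by construct and not by antibody. Both IPs of a construct resembled each other (r = 0.996 across probe sets for the control vector and 0.988 for miR-21) more than the IgG IPs of the 2 constructs did (r = 0.961). In replicate 1 the IPs of a construct correlated at 0.920 and 0.931. In replicate 2 each IP array was thus most like the other IP of its construct, not the same IP of the other construct. Results are given with and without 2 of these arrays, the AGO2 IP labelled control vector and the IgG IP labelled miR-21, a choice made with earlier results of these data known. Among the replicate 2 IP arrays, the first was low for an AGO2 IP in CISH, SOCS1 and SOCS3 227697_at. The second was high for an IgG IP in the same. Leaving both arrays out thus favours a rise of these probe sets and gives their direction no support. Whether the replicate 2 arrays hold the RNA on their labels, and whether the purification worked alike, was not tested, which bears on every replicate 2 difference between IPs or constructs. The ACTB signal, read as 3′ minus 5′ probe sets, ran from 1.35 to 1.38 in Total RNA, 2.08 to 2.18 in IgG IP and 1.97 to 4.0 in AGO2 IP of replicate 1. In replicate 2 these ranges were 3.18 to 3.53, 2.57 to 3.48 and 2.08 to 2.58, and the part of RNA quality in the results was not tested. Of 12 T cell markers, 11 were measured and all 11 passed the filter below, with array medians of 7.53 to 9.08. Medians were 3.30 to 4.65 for B cell, 2.78 to 3.63 for monocyte and macrophage, 2.57 to 3.94 for epithelial and 3.38 to 4.74 for erythroid markers, of which 3 of 6, 1 of 6, 2 of 5 and 2 of 3 measured genes passed.

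Of the 25 SOCS family probe sets, 19 passed the filter, a mean over the 12 arrays of at least 4.02. The 6 that did not were SOCS1 210000_s_at, SOCS2 232539_at, SOCS3 206359_at and 214105_at, SOCS6 214462_at and SOCS7 214015_at, with means of 2.76 to 3.85. The nearest member inside was SOCS2 203372_s_at at 4.03 and the nearest outside was SOCS7 214015_at at 3.85. In 7 of the 19 the Total RNA mean lay below the filter, so that the values of 1 or both IPs carried them over it. These were CISH 223961_s_at, SOCS1 209999_x_at, 210001_s_at and 213337_s_at, SOCS2 203372_s_at, SOCS3 227697_at and SOCS6 206020_at. A rise in them is partly fixed by that filter, and their count lends no support to a direction. Fitted without the filter, the 6 low probe sets differed between AGO2 IP and Total RNA by 0.03 (SOCS1 210000_s_at) to 0.45 (SOCS3 206359_at), all with an adjusted p of 1.

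**Figure D1:**
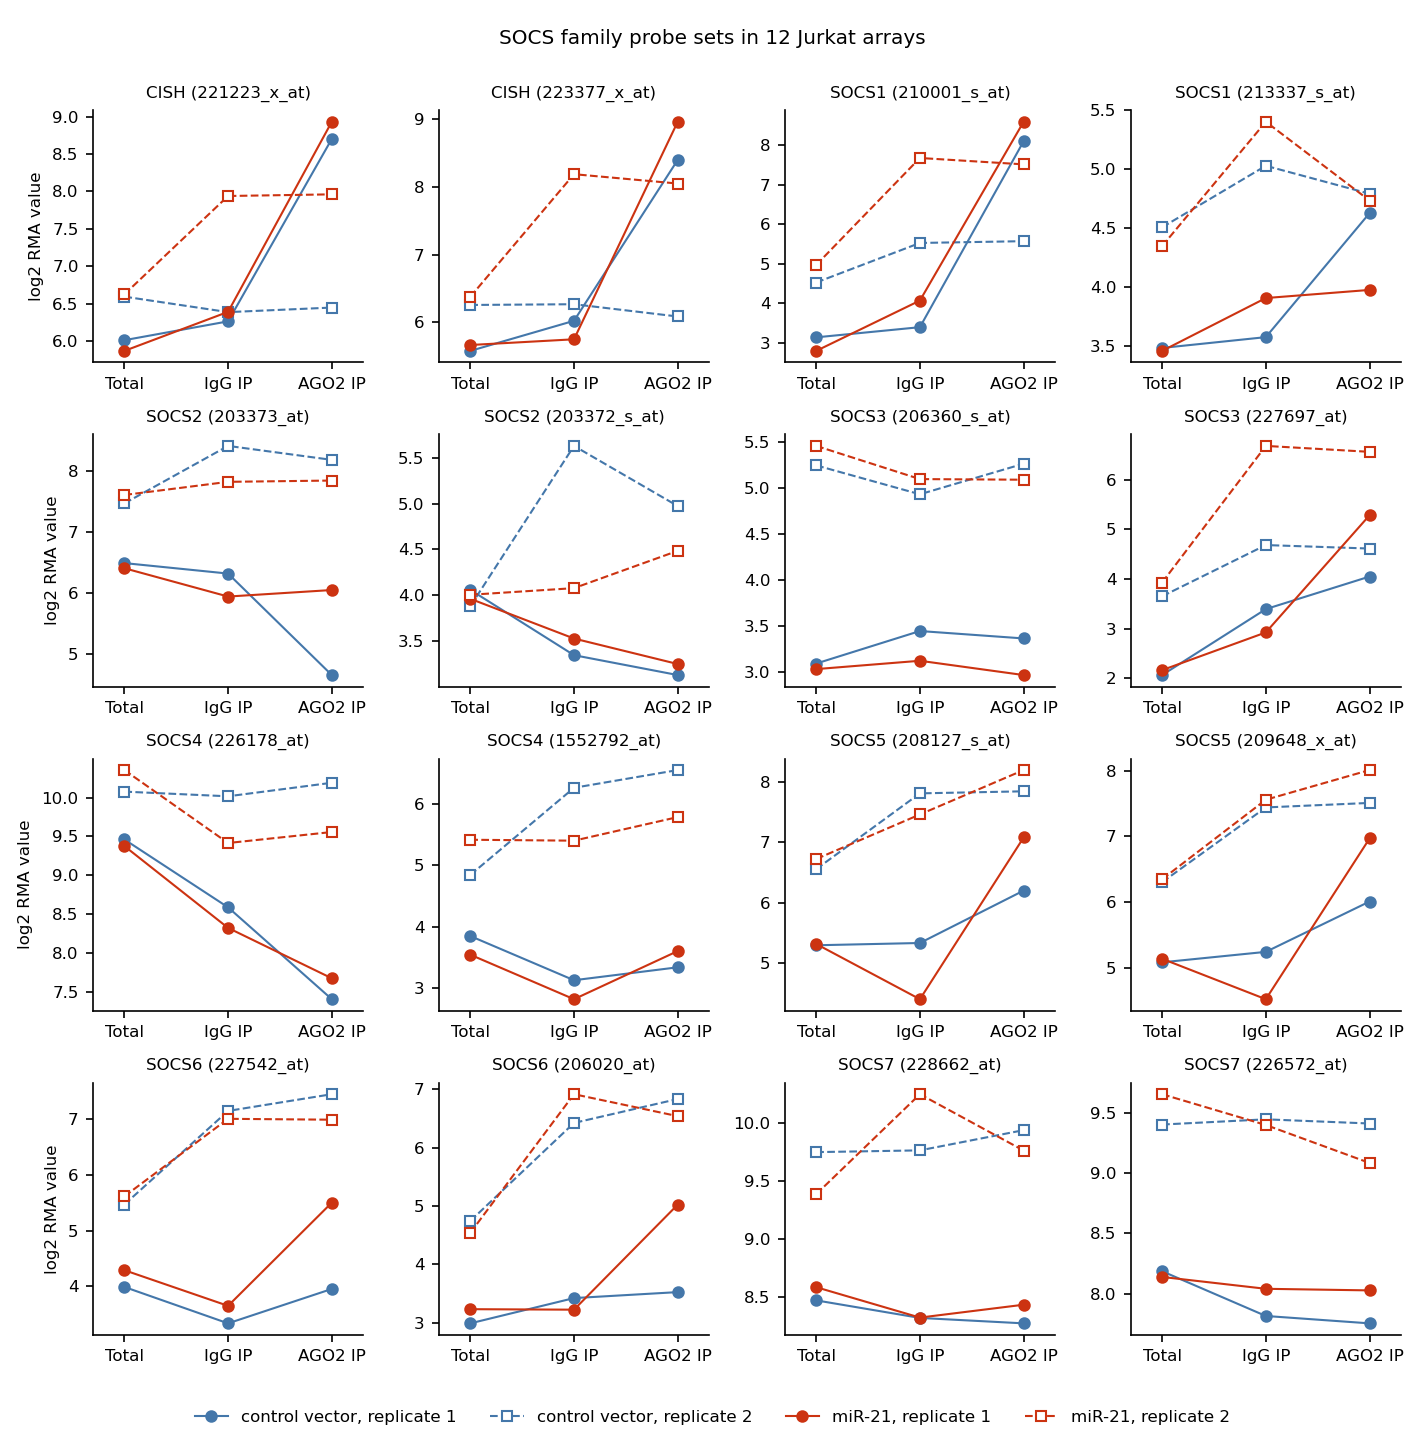
RMA values (log2) of the brighter 2 probe sets of each SOCS family gene, among those that passed the filter, in Total RNA, IgG IP and AGO2 IP. Each point is 1 array, colour gives the construct, filled circles are replicate 1 and open squares replicate 2, and lines join arrays of 1 construct and replicate. CISH 221223_x_at reached 8.70 and 8.93 in the AGO2 IP arrays of replicate 1, and 7.94 and 7.96 in both miR-21 IP arrays of replicate 2.

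The comparison of AGO2 IP with IgG IP asks which transcripts the AGO2 antibody enriched over the antibody background. CISH and SOCS1 were higher in AGO2 IP in replicate 1, with both constructs, and SOCS5 was higher to a smaller extent. SOCS4 226178_at was lower there. In replicate 2 the differences of CISH 221223_x_at, SOCS1 210001_s_at and SOCS4 226178_at lay between -0.16 and 0.17. The SOCS5 probe sets kept 0.45 to 0.91 there with miR-21 and lay between -0.22 and 0.07 with the control vector. Over both replicates no SOCS family probe set passed the test.

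CISH, which binds activated interleukin and growth hormone receptors and is a classical STAT5 target, had 3 probe sets that moved as 1. For 221223_x_at the control vector arrays of replicate 1 gave 6.01 in Total RNA, 6.26 in IgG IP and 8.70 in AGO2 IP, and the miR-21 arrays 5.87, 6.39 and 8.93. In replicate 2 the control vector arrays gave 6.59, 6.39 and 6.45, and the miR-21 arrays 6.63, 7.94 and 7.96. Thus both AGO2 IP arrays were high in replicate 1, whereas both miR-21 IP arrays were high in replicate 2. AGO2 IP minus IgG IP was 2.44 and 2.54 in replicate 1 (control vector, then miR-21) and 0.06 and 0.02 in replicate 2. The other probe sets gave 2.37 and 3.21 (223377_x_at) and 2.46 and 2.39 (223961_s_at) in replicate 1, and -0.18 to 0.30 in replicate 2. After the replicate means were subtracted, the 3 probe sets correlated at 0.95 to 0.99 over the 12 arrays, which share the same libraries.

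SOCS1, which binds JAKs directly and blocks their kinase activity, went the same way. For 210001_s_at the control vector arrays of replicate 1 gave 3.14 in Total RNA, 3.39 in IgG IP and 8.10 in AGO2 IP, and the miR-21 arrays 2.79, 4.07 and 8.59. In replicate 2 they gave 4.52, 5.52 and 5.57 with the control vector and 4.97, 7.67 and 7.51 with miR-21. In replicate 1 both AGO2 IP arrays lay above the other 4, and in replicate 2 both miR-21 IP arrays did. AGO2 IP minus IgG IP was 4.70 and 4.52 in replicate 1, and in replicate 2 it was 0.05 and -0.16. The IgG IP and Total RNA values of replicate 1 were near or below the array medians of 3.55 to 3.67, and are not shown to be above background, so no fold is given against them. The same holds for the Total RNA values of SOCS3 227697_at, SOCS6 206020_at and CISH 223961_s_at in that replicate. In replicate 2 the Total RNA values of SOCS3 227697_at (3.65 and 3.93) and CISH 223961_s_at (4.10 and 3.96) lay below the array medians of 4.48. SOCS1 209999_x_at gave 1.90 and 2.67 in replicate 1, and -0.02 and -0.55 in replicate 2. The remaining probe set that passed, 213337_s_at, gave 1.05 and 0.07, then -0.24 and -0.67, so the probe sets of SOCS1 differed in size.

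SOCS3, which inhibits JAKs at the gp130 receptor chain and is a STAT3 target, was read by probe sets that disagreed. For 227697_at the control vector arrays of replicate 1 gave 2.07 in Total RNA, 3.39 in IgG IP and 4.05 in AGO2 IP, and the miR-21 arrays 2.17, 2.93 and 5.28. In replicate 2 they gave 3.65, 4.68 and 4.61 with the control vector and 3.93, 6.68 and 6.56 with miR-21. Every IP array was above the Total RNA array of its construct and replicate. For 206360_s_at replicate 1 ran from 2.97 to 3.45 and replicate 2 from 4.93 to 5.46, with AGO2 IP and Total RNA overlapping in both. The 2 correlated at -0.25 over the 12 arrays, so that no single level can be given for SOCS3. All replicate 1 values of 206360_s_at lay below the array medians of 3.55 to 3.67. Of the probe sets that did not pass the filter, 206359_at correlated at 0.85 with 227697_at and -0.22 with 206360_s_at. For 214105_at these were 0.15 and -0.10. AGO2 IP minus IgG IP for 227697_at was 0.66 and 2.36 in replicate 1 and -0.07 and -0.12 in replicate 2.

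SOCS5, which has been tied to signalling by the interleukin 4 and EGF receptors, was read alike by 3 probe sets (r = 0.96 to 0.98). For 208127_s_at the control vector arrays of replicate 1 gave 5.29 in Total RNA, 5.33 in IgG IP and 6.20 in AGO2 IP, and the miR-21 arrays 5.31, 4.40 and 7.08. In replicate 2 they gave 6.55, 7.81 and 7.84 with the control vector and 6.72, 7.46 and 8.19 with miR-21. AGO2 IP was the highest fraction of every construct and replicate, by 0.03 over IgG IP in the control vector arrays of replicate 2. The difference from IgG IP was 0.87 and 2.68 in replicate 1, so the miR-21 arrays were further apart, and the IgG IP array of miR-21 was itself the lowest of its replicate. In replicate 2 it was 0.03 and 0.74. The 2 other probe sets gave 0.76 and 2.44 (209648_x_at) and 0.43 and 3.06 (209647_s_at) in replicate 1.

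SOCS4, the closest relative of SOCS5, went the other way in replicate 1. For 226178_at the control vector arrays of replicate 1 gave 9.46 in Total RNA, 8.59 in IgG IP and 7.41 in AGO2 IP, and the miR-21 arrays 9.38, 8.33 and 7.68. In replicate 2 they gave 10.08, 10.02 and 10.19 with the control vector and 10.35, 9.42 and 9.56 with miR-21. Both IPs were below Total RNA in 3 of the 4 sets of arrays, with AGO2 IP the lowest in replicate 1. The dim probe set 1552792_at did not follow (r = 0.20 with 226178_at), with 2.82 to 3.85 in replicate 1 and 4.84 to 6.55 in replicate 2.

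SOCS6 and SOCS7 are larger members with a long amino-terminal region, and SOCS6 acts on receptor tyrosine kinases such as KIT. For SOCS6 206020_at the control vector arrays of replicate 1 gave 2.99 in Total RNA, 3.42 in IgG IP and 3.52 in AGO2 IP, and the miR-21 arrays 3.23, 3.22 and 5.02. In replicate 2 they gave 4.74, 6.42 and 6.83 with the control vector and 4.54, 6.92 and 6.54 with miR-21. In replicate 1 only the miR-21 AGO2 IP array stood out, and in replicate 2 all 4 IP arrays were above both Total RNA arrays. SOCS6 227542_at likewise had all 4 IP arrays above Total RNA in replicate 2, with 5.47 and 5.61 in Total RNA and 7.0 to 7.45 in the IPs. SOCS7 228662_at ran from 8.27 to 8.58 in replicate 1 and from 9.39 to 10.25 in replicate 2, and 226572_at from 7.75 to 8.19 and from 9.08 to 9.65. In replicate 1 both Total RNA arrays were above all 4 IP arrays for each of these probe sets, by small margins. In replicate 2 Total RNA was below every IP array for 228662_at, and the fractions overlapped for 226572_at.

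SOCS2, which like CISH binds growth hormone and other cytokine receptors, was read best by 203373_at, which lay at or below IgG IP in 2 of its 4 AGO2 IP arrays and within 0.11 above it in the others. For 203373_at the control vector arrays of replicate 1 gave 6.49 in Total RNA, 6.32 in IgG IP and 4.66 in AGO2 IP, and the miR-21 arrays 6.41, 5.95 and 6.05. In replicate 2 they gave 7.47, 8.42 and 8.19 with the control vector and 7.61, 7.83 and 7.85 with miR-21. The control vector AGO2 IP array of replicate 1, lowest of its replicate, also had the highest ACTB 3′ minus 5′ signal of all arrays, 4.0, whose part in this value was not tested.

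**Figure D2:**
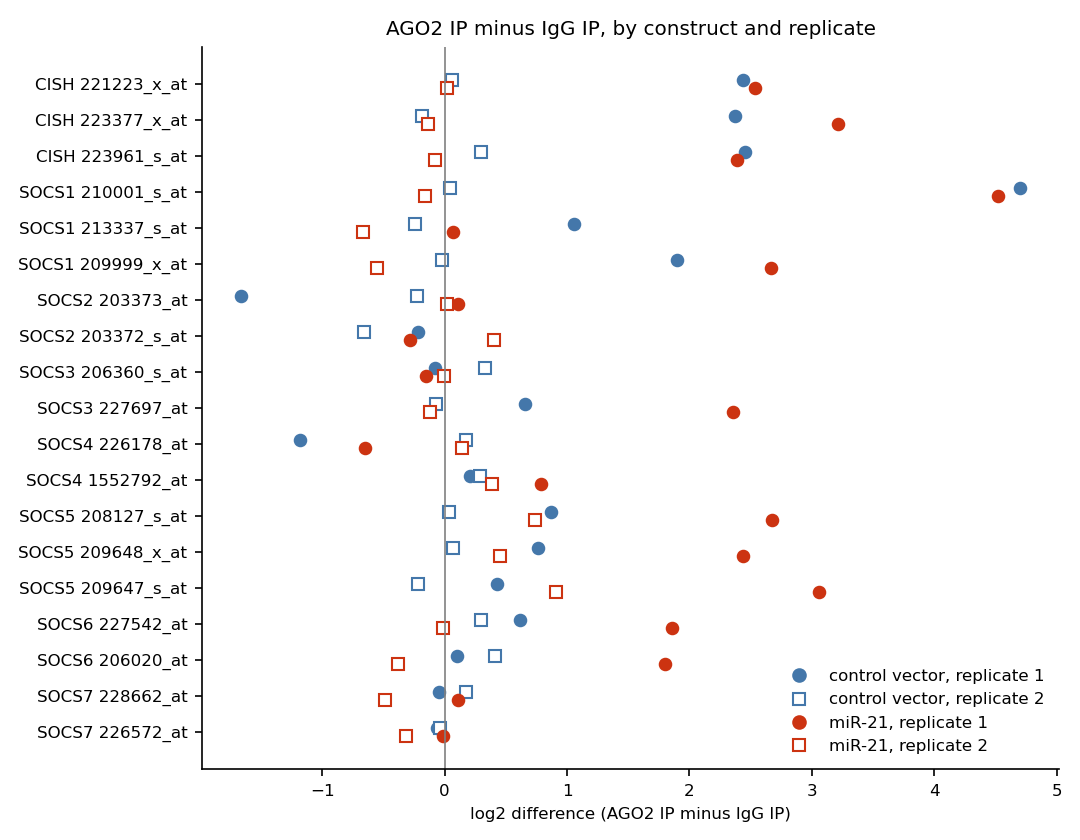
AGO2 IP minus IgG IP (log2) for the 19 SOCS family probe sets that passed the filter. Each point is 1 construct in 1 replicate, with colour for the construct and filled circles for replicate 1. The CISH probe sets lay between 2.37 and 3.21 in replicate 1 and between -0.18 and 0.30 in replicate 2.

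The tests of AGO2 IP against IgG IP followed these values (4 arrays against 4, limma with Benjamini-Hochberg adjustment over 23123 probe sets, called at an adjusted p under 0.05). Without a term for the replicate, 0% of probe sets were called, SOCS family members included (44 at an unadjusted p under 0.05). With the replicate number as a block the share was again 0% (1039 at an unadjusted p under 0.05, lowest adjusted p 0.881), and in replicate 2 alone 0% (98 at an unadjusted p under 0.05). In replicate 1 alone, with 2 arrays per fraction, 9.04% of probe sets were called higher and 5.92% lower, and 7 of the 19 members were higher and 1 lower. Those 2 arrays are 1 of each construct. The errors and p-values of that fit thus rest on how the constructs differed across fractions, not on a spread between replicates. CISH rose by 2.49 ± 0.19 (SE; 221223_x_at, 5.61-fold, adjusted p = 0.0014), and its other probe sets by 2.79 ± 0.24 and 2.42 ± 0.18. SOCS1 210001_s_at rose by 4.61 ± 0.28 (adjusted p = 0.00096), from IgG IP values not shown to be above background. SOCS1 209999_x_at rose by 2.28 ± 0.41 (adjusted p = 0.022). Its means over both replicates were 3.70 in Total RNA and 3.93 in IgG IP, both below the filter, and 4.93 in AGO2 IP. The AGO2 IP values thus carried 209999_x_at over the filter, and its rise lends no support to a direction.

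SOCS5 208127_s_at rose by 1.77 ± 0.41 (adjusted p = 0.041) and 209648_x_at by 1.60 ± 0.38 (adjusted p = 0.044) in replicate 1 alone, while 209647_s_at lay at 1.75 ± 0.57 (adjusted p = 0.090). SOCS4 226178_at fell by 0.91 on the log2 scale (SE 0.20, adjusted p = 0.038). SOCS3 227697_at lay at 1.51 ± 0.39 (adjusted p = 0.055), and SOCS6 at 1.24 ± 0.34 and 0.95 ± 0.40 (adjusted p = 0.061 and 0.15). The SOCS2 probe sets lay at -0.78 and -0.25 and those of SOCS7 at 0.03 and -0.04, none past the threshold.

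With these 2 arrays of replicate 2 (AGO2 IP of the control vector, IgG IP of miR-21) left out and the replicate block kept, 3.64% of probe sets were called higher in AGO2 IP than in IgG IP. Of the SOCS family, 5 probe sets of 3 genes rose and 0 fell. CISH rose by 2.22 ± 0.37, 2.50 ± 0.36 and 2.01 ± 0.40 (adjusted p = 0.031, 0.023 and 0.043). SOCS1 210001_s_at rose by 3.81 ± 0.65 (adjusted p = 0.031) and SOCS3 227697_at by 1.50 ± 0.22 (adjusted p = 0.022). SOCS5 208127_s_at lay at 1.43 ± 0.32 (adjusted p = 0.056). In that fit replicate 2 supplies 1 array of each IP, AGO2 from miR-21 cells and IgG from control vector cells. Fraction and construct thus cannot be told apart within replicate 2. For SOCS3 227697_at the AGO2 IP array left out read 4.61 and the one kept 6.56. The IgG IP array left out read 6.68 and the one kept 4.68, so the omission favours its rise, as for CISH and SOCS1 210001_s_at. The total of calls in both directions in that fit is given in the last section. With all arrays and the block, SOCS1 210001_s_at lay at 2.28 ± 0.88 and CISH 221223_x_at at 1.27 ± 0.54 (adjusted p = 0.88 for both).

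**Figure D3:**
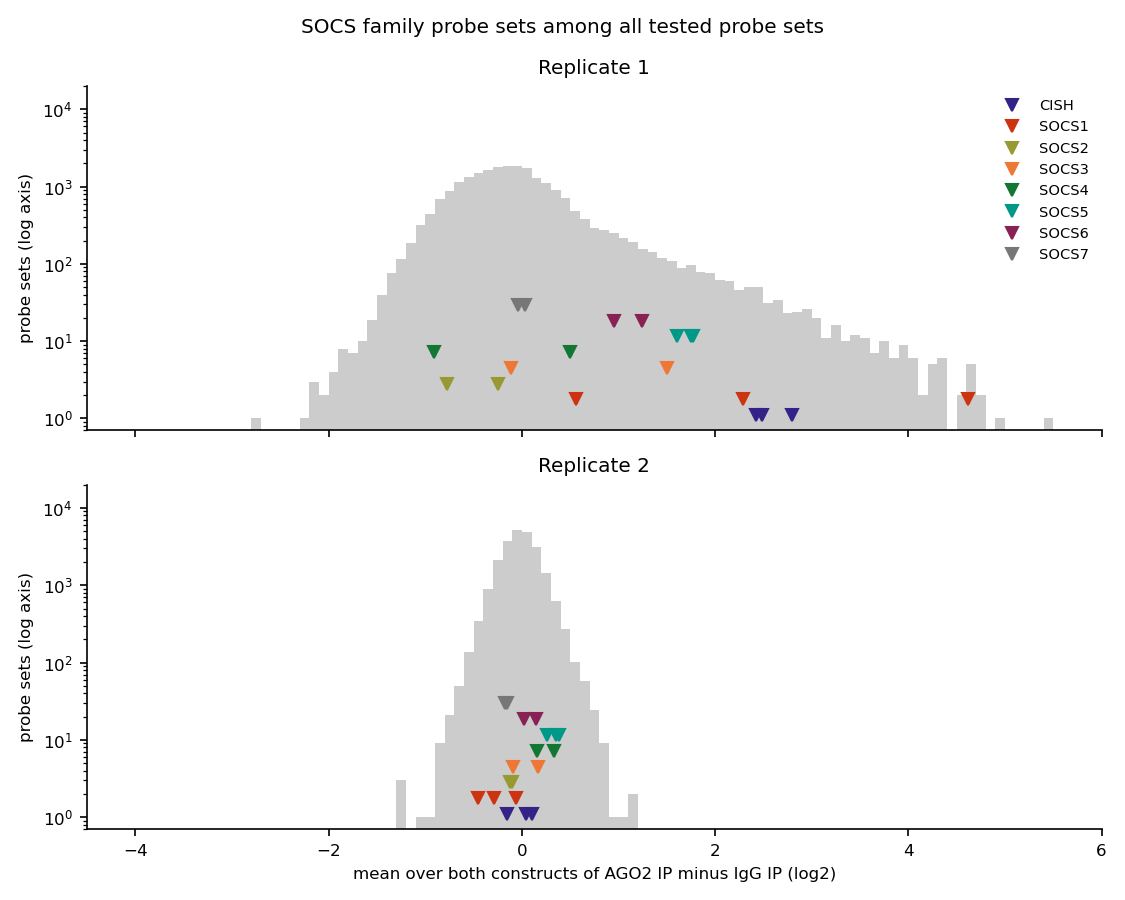
Mean of both constructs of AGO2 IP minus IgG IP (log2) for all 23123 probe sets tested (grey histogram with bins of 0.1, log axis), with the 19 SOCS family probe sets as triangles coloured by gene and set apart in height for legibility only. SOCS1 210001_s_at lay at 4.61 in replicate 1 and at -0.06 in replicate 2, where the whole distribution was narrower.

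AGO2 IP was then compared with Total RNA, which shows how each transcript was represented in the purified RNA relative to the whole cell. CISH, SOCS1, SOCS3, SOCS5 and SOCS6 were higher in AGO2 IP by at least 1 probe set, while SOCS4 226178_at lay lower and SOCS2 and SOCS7 gave no call over both replicates. Without a replicate term 0% of probe sets were called (1848 at an unadjusted p under 0.05, lowest adjusted p 0.44). With the block 3.89% of probe sets were called higher and 9.91% lower, and 7 SOCS family probe sets of 5 genes rose and 0 fell. Among those called, CISH 223961_s_at, SOCS1 210001_s_at, SOCS3 227697_at and SOCS6 206020_at had Total RNA means below the filter. Their rise is partly fixed by the filter, so the count lends no support to a direction. The called SOCS5 probe sets had Total RNA means above it. The labelled amount of RNA differs between these fractions and cannot be told apart from the purification.

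SOCS1 210001_s_at rose by 3.59 ± 0.88 with the block in this comparison (adjusted p = 0.031), and its differences were 4.96 and 5.80 in replicate 1 and 1.05 and 2.54 in replicate 2 (control vector, then miR-21). SOCS3 227697_at rose by 2.17 ± 0.44 (adjusted p = 0.020), with 1.98, 3.12, 0.96 and 2.63 in the same order. It was higher in all 4 pairs of arrays, yet the other SOCS3 probe set, 206360_s_at, lay at -0.04 ± 0.20. CISH 223961_s_at rose by 2.17 ± 0.47 (adjusted p = 0.023), with 3.09, 3.22, 0.66 and 1.73. The Total RNA values of this dim probe set are not shown to be above background. The brighter CISH probe sets were not called, at 1.74 ± 0.54 and 1.90 ± 0.63 (adjusted p = 0.064 and 0.076). In both, the control vector arrays of replicate 2 were slightly below Total RNA, at -0.15 and -0.17.

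For SOCS5 the rise was of like size in both replicates. With the block, 208127_s_at rose by 1.36 ± 0.33 (adjusted p = 0.032), 209647_s_at by 1.53 ± 0.38 (adjusted p = 0.032) and 209648_x_at by 1.40 ± 0.33 (adjusted p = 0.028). For 208127_s_at the pairs gave 0.91 and 1.76 in replicate 1 and 1.29 and 1.47 in replicate 2. In replicate 2 the IgG IP arrays shared this rise, with 1.26 and 0.74 over Total RNA, and in replicate 1 they lay at 0.04 and -0.91.

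SOCS6 206020_at rose by 1.61 ± 0.42 with the block (adjusted p = 0.038) and 227542_at lay at 1.14 ± 0.47 (adjusted p = 0.14). In replicate 2 the rises of 206020_at were 2.09 and 2.0, and those of its IgG IP arrays 1.68 and 2.38. SOCS4 226178_at lay at -1.11 ± 0.33 (adjusted p = 0.058), with -2.05 and -1.70 in replicate 1 and 0.11 and -0.80 in replicate 2. SOCS2 lay at -0.31 ± 0.37 (203373_at) and -0.02 ± 0.41 (203372_s_at), and SOCS7 at 0.05 ± 0.22 and -0.28 ± 0.19. Replicates differed in sign for both SOCS2 probe sets, lower than Total RNA in replicate 1 and higher in replicate 2.

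**Figure D4:**
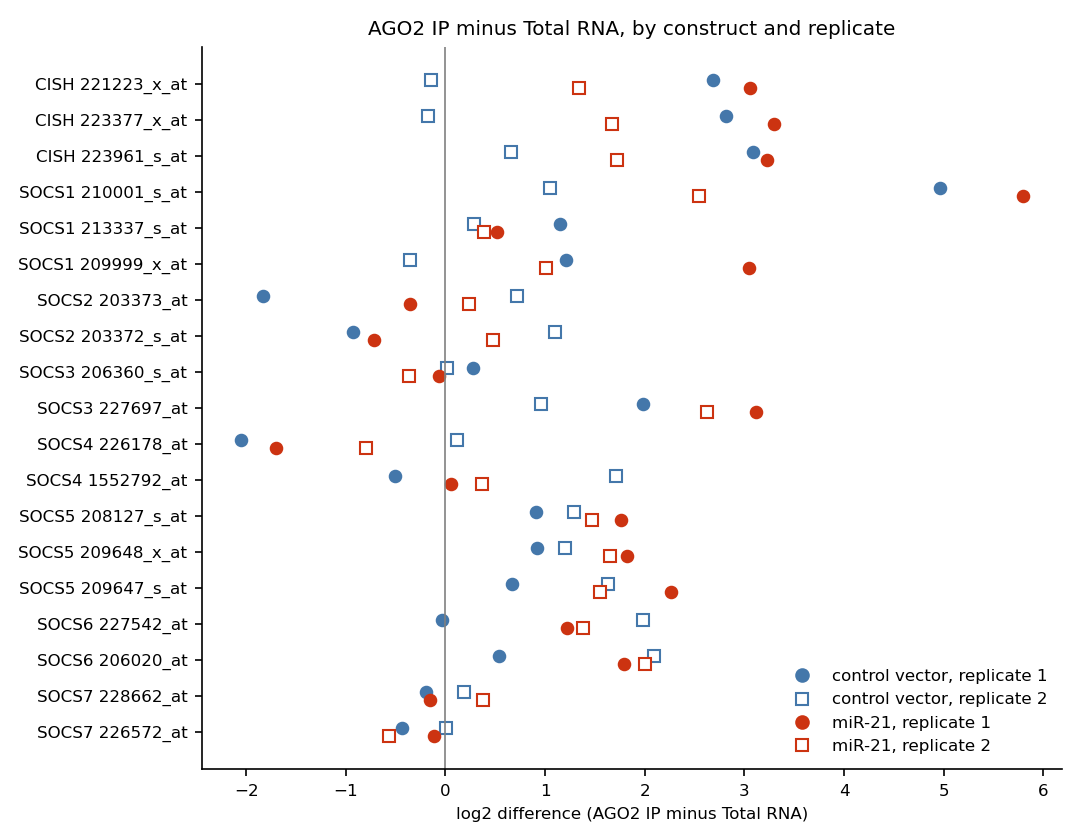
AGO2 IP minus Total RNA (log2) for the 19 SOCS family probe sets that passed the filter, with colour for the construct, filled circles for replicate 1 and open squares for replicate 2. SOCS5 208127_s_at lay between 0.91 and 1.76 in all 4 pairs, and SOCS1 210001_s_at between 1.05 and 5.80.

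Calls over all probe sets in AGO2 IP against Total RNA varied widely with the array left out, and the last section gives their range. The 7 SOCS family calls depended on single arrays too, which is thus not particular to the family. Their number fell to 0 without the miR-21 AGO2 IP array of replicate 1, without that of replicate 2, and without either Total RNA array of replicate 2. It was 2 without the replicate 1 Total RNA of miR-21 (SOCS3 227697_at and SOCS6 206020_at) and 3 without the control vector AGO2 IP array of replicate 1 (these and CISH 223961_s_at). Without the control vector AGO2 IP array of replicate 2 it was 10, and it was 6 to 8 without any other array. Without these 2 arrays, 6.9% of probe sets were called higher and 13% lower, and 11 SOCS family probe sets rose and 1 fell. All 3 probe sets each of CISH, SOCS1 and SOCS5 then rose, as did SOCS3 227697_at and SOCS6 206020_at, and SOCS4 226178_at fell by 1.50 on the log2 scale (SE 0.28, adjusted p = 0.014). With cyclic loess and the block SOCS4 226178_at was called lower as well. The calls over all probe sets were then 1101 higher and 1524 lower, against 900 and 2291 on the deposited values. Some probe sets that rose without the 2 arrays of replicate 2 had Total RNA means below the filter. They were all 3 of SOCS1, CISH 223961_s_at, SOCS3 227697_at and SOCS6 206020_at. The AGO2 IP array left out there was low for an AGO2 IP in CISH, SOCS1 and SOCS3 227697_at. Filter and omission thus favour these rises, and the count of 11 lends no support to a direction.

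Within replicate 1 alone, 9.79% of probe sets were called higher and 22.6% lower in AGO2 IP against Total RNA. Within replicate 2 alone 16.6% (3849 probe sets) were called higher. Others were called lower there, and the last section gives the total of both directions. In replicate 1, 7 SOCS family probe sets of 4 genes rose: all 3 of CISH, SOCS1 210001_s_at and 209999_x_at, SOCS3 227697_at and SOCS5 209648_x_at. SOCS4 226178_at fell by 1.88 and SOCS2 203372_s_at by 0.82 on the log2 scale. In replicate 2, 8 rose and 0 fell: CISH 223961_s_at, SOCS1 210001_s_at, SOCS3 227697_at, the 3 of SOCS5 and SOCS6 206020_at and 227542_at. Of those that rose in either replicate, CISH 223961_s_at, SOCS1 210001_s_at and 209999_x_at, SOCS3 227697_at and SOCS6 206020_at had Total RNA means below the filter. Their rise is partly fixed by it, so neither count lends support to a direction.

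IgG IP against Total RNA gives the same comparison for the antibody background, with the same Total RNA arrays. No SOCS family probe set was called over both replicates. Without a replicate term 0% of all probe sets were called (703 at an unadjusted p under 0.05), with the block 2.59%, and in replicate 1 alone 2.68%. With the block SOCS3 227697_at lay at 1.47 ± 0.44 (adjusted p = 0.12), SOCS1 210001_s_at at 1.31 ± 0.88 (adjusted p = 0.47) and CISH 221223_x_at at 0.47 ± 0.54 (adjusted p = 0.69). SOCS3 227697_at was called once the replicate 1 IgG IP of miR-21 was left out, 1 call in the family. In replicate 2 alone 15.1% of probe sets were called higher, and 8 SOCS family probe sets rose: the 3 of SOCS5, SOCS6 206020_at and 227542_at, SOCS1 210001_s_at and 213337_s_at, and SOCS3 227697_at. Of these, SOCS6 206020_at, both SOCS1 probe sets and SOCS3 227697_at had Total RNA means below the filter, so the count lends no support to a direction. SOCS6 206020_at rose by 2.03 ± 0.26 in replicate 2 alone (adjusted p = 0.0038). The constructs were unequal for SOCS1 210001_s_at, whose IgG IP arrays of replicate 2 lay 1.00 over Total RNA with the control vector and 2.71 with miR-21. Without these 2 arrays SOCS1 210001_s_at lay at 0.70 ± 0.61 and SOCS6 206020_at at 0.67 ± 0.34, neither called.

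The construct was compared within each fraction to ask whether extra miR-21 changed the amount of SOCS family RNA or its share in AGO2 IP. No SOCS family probe set was called, and limma called 0 probe sets of any gene, with or without the block. Over the 19 probe sets miR-21 minus control vector ran from -0.21 to 0.30 in Total RNA. In IgG IP it ran from -0.81 to 1.41 and in AGO2 IP from -0.36 to 1.59. Unadjusted p under 0.05 was reached by 0, 3 and 29 probe sets of all genes in Total RNA, IgG IP and AGO2 IP without the block, and by 7, 225 and 781 with it.

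CISH 221223_x_at differed by construct in replicate 2 only, by 1.51 in AGO2 IP and 1.55 in IgG IP, against 0.23 and 0.13 in replicate 1. SOCS1 210001_s_at gave 1.94 and 2.15 in replicate 2, against 0.49 and 0.67 in replicate 1. The miR-21 arrays of both IPs were thus the higher ones in replicate 2, and these are the arrays that resembled each other. In Total RNA of the same cells CISH 221223_x_at differed by -0.14 and 0.03 and SOCS1 210001_s_at by -0.34 and 0.44 (replicate 1, then 2), signs that were not shared by the replicates. SOCS6 227542_at and SOCS2 203373_at showed the reverse in AGO2 IP, with 1.55 and 1.39 in replicate 1 and -0.46 and -0.34 in replicate 2. Some other probe sets were higher with miR-21 in AGO2 IP of both replicates. SOCS3 227697_at read 4.05 (control vector) and 5.28 (miR-21) in replicate 1, and 4.61 and 6.56 in replicate 2. With the block limma gave it 1.59 (unadjusted p = 0.031), not called. SOCS1 209999_x_at read 5.03 and 6.57 in replicate 1, and 3.44 and 4.68 in replicate 2.

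**Figure D5:**
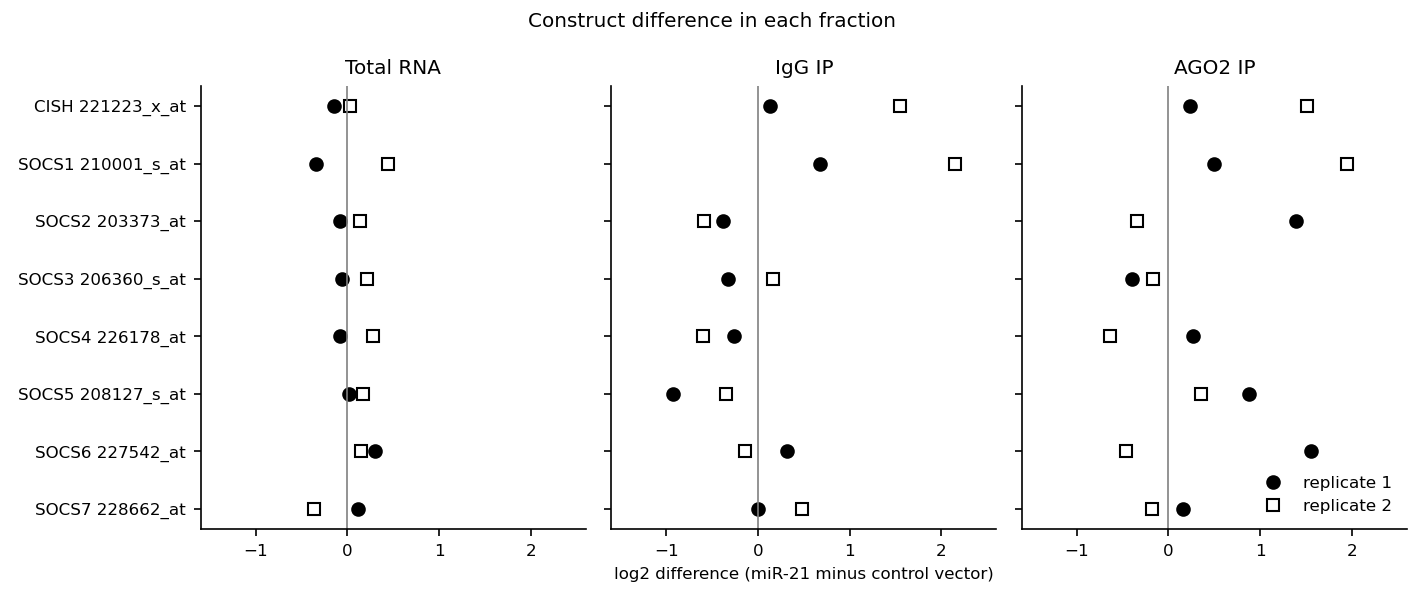
miR-21 minus control vector (log2) in Total RNA, IgG IP and AGO2 IP for the brightest probe set of each SOCS family gene. Filled circles are replicate 1 and open squares replicate 2. Total RNA points lay within -0.36 and 0.44, while SOCS1 210001_s_at reached 2.15 in IgG IP and 1.94 in AGO2 IP of replicate 2.

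The interaction asks whether AGO2 IP enrichment differed by construct, and no probe set was called for it either (1 and 107 at an unadjusted p under 0.05 against IgG IP without and with the block, 4 and 157 against Total RNA). Over the 19 SOCS family probe sets the difference of differences ran from -0.71 to 1.88 against IgG IP and from -0.39 to 1.60 against Total RNA. SOCS5 209647_s_at was at the upper end of the first range, since its AGO2 IP minus IgG IP was 3.06 and 0.91 with miR-21 and 0.43 and -0.22 with the control vector. The SOCS5 probe sets were further apart with miR-21 in both replicates, without passing the test.

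Members were also set beside each other over the 12 arrays, after the mean of each replicate number was subtracted, with the brightest probe set of each gene. CISH and SOCS1 had r = 0.98 and SOCS5 and SOCS6 r = 0.82, whereas SOCS4 ran against CISH (r = -0.90) and SOCS1 (r = -0.90). All arrays share their libraries and normalization across genes, so these are descriptions. Among 12824 genes the profiles most like CISH were NDUFC1 (r = 0.992) and SLIRP (0.990), and those most like SOCS1 were C8orf76 (0.994) and CYP2R1 (0.991). SOCS4 was most like TMX4 (0.991) and CHML (0.987), SOCS2 most like TRAPPC2 (0.984) and PCYOX1 (0.978), and SOCS6 most like ZNF256 (0.978) and TOB1 (0.976). SOCS5 was most like STX2 and SESTD1 (0.972 for both). Matches were weaker with LZTS2 (0.906) and PSMD14-DT (0.875) for SOCS3 (206360_s_at) and with RETREG3 (0.885) and GLYR1 (0.883) for SOCS7.

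The genes that work with the SOCS family were counted with 1 probe set per gene, from lists chosen by role. For AGO2 IP against Total RNA with the block, 3 of 17 cytokine receptor chains rose and 1 fell (median -0.03, against -0.05 over all probe sets, of which 3.89% rose and 9.91% fell; the counts of the other lists stand beside the same shares). Those called were the interferon receptor chains IFNAR2 (1.71) and IFNGR2 (1.80), the interleukin 10 receptor chain IL10RB (0.94) and the leukaemia inhibitory factor receptor LIFR (-0.82), all named after their values were seen. Of 4 JAK kinases TYK2 fell by 0.90 (adjusted p = 0.028), and JAK1, JAK2 and JAK3 lay at -0.48, -0.05 and -0.82. Of 5 STAT genes 0 were called, with STAT3 at 0.15, STAT5A at -0.29 and STAT5B at -0.52. The interleukin 7 receptor IL7R did not pass the filter.

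Among 9 elongin and cullin ligase partners of the SOCS box, elongin B (ELOB) fell by 1.84 (adjusted p = 0.021), while elongin C (ELOC) lay at 0.50, CUL5 at 0.12 and RNF7 at 0.71. Of 12 other inhibitors of JAK and STAT signalling 2 fell, the ubiquitin ligase CBL (-1.45) and the phosphatase PTPRC (-0.74), named after their values were seen, with PTPN2 at 0.42, PTPN6 at 0.06 and PIAS1 at 0.12. Of 14 other SOCS box proteins 1 rose, RAB40B (1.71), also named afterwards, and WSB1 lay at -0.29. Of 18 STAT target genes other than the family, 2 rose and 1 fell, MCL1 (1.67), GFI1 (1.64) and HIF1A (-1.07), likewise named afterwards, with BCL6 at -0.09 and PIM1 at 0.20.

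In replicate 1 alone, AGO2 IP against IgG IP called 4 of 17 receptor chains higher and 0 lower, 0 of 4 JAKs, 0 of 5 STATs, 3 of 9 SOCS box partners higher and 1 lower, and 4 of 14 other SOCS box proteins higher and 1 lower. It also called 0 of 12 other inhibitors, and 4 of 18 STAT target genes higher and 0 lower. Over all probe sets 9.04% were called higher and 5.92% lower. CUL5, the scaffold of the SOCS box ligase, was higher in AGO2 IP than in IgG IP by 0.87 ± 0.17 (adjusted p = 0.028). In the same replicate it lay at -1.05 ± 0.17 in IgG IP against Total RNA (adjusted p = 0.046). It was not called in AGO2 IP against Total RNA. IL2RG, the receptor chain shared by several interleukins, lay at -0.25 ± 0.18, IL6ST, the gp130 chain on which SOCS3 acts, at 0.21 ± 0.29, and IFNGR1 at -0.91 ± 0.33, none past the threshold. The medians of these 7 lists ran from -0.43 (other inhibitors) to 0.16 (SOCS box partners), beside -0.12 for all probe sets.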

How the data were processed

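Total, AGO2 IP and IgG IP RNA of Jurkat cells, with extra miR-21 or with the control vector, was hybridised to 12 arrays. The values are log2 values that the authors deposited after RMA, which the submitters' processing notes name; the sources used here give no version, settings or joint normalization. Of 54675 probe sets, 62 were controls, 41091 had 1 gene symbol, 1801 had several and 11783 were unnamed here. Single-symbol probe sets with a mean of at least 4.02, the median of non-control probe sets, were tested (23123, of 12824 genes). Group means were fitted with limma 3.58.1 in R 4.3.3 (lmFit, contrasts.fit, eBayes) and adjusted by Benjamini-Hochberg at 0.05, without a replicate term, and with the replicate number as a block. For 1 replicate alone, means per fraction and a construct term were fitted. Each fraction then has 1 array of each construct, so the errors and p-values measure no spread between replicates. Precision is limited by 2 arrays per group. The replicate numbers in the labels paired the arrays: over 15 pairs of groups, deviations of same-numbered arrays correlated at 0.429 to 0.875. Code was tested on simulated data. Alternatives were the replicate block, median centring, cyclic loess, no filter, 1 probe set per gene, single replicates, and arrays left out.

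All 8 members and their single-symbol probe sets were described. Genes of other lists were named by role, and genes named beyond that are marked. The most alike genes were the 2 with the highest Pearson r over the 12 arrays, after subtracting replicate means. The members and lists were chosen with earlier results of these data known. Promoter and miRNA sequences came from RefSeq tables (GRCh38.p14), and tables and plots were made with Python 3.11.15, pandas 2.3.3, numpy 2.4.6 and matplotlib 3.10.9.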

Additional observations from a re-analysis of the deposited data

Results flagged for a closer look

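Over 19 SOCS family probe sets and 3 differences between fractions, 57 sets of values were examined. In 3 of them both replicates of the control vector moved one way and both replicates of miR-21 the opposite way. The limma interaction with the block was not called for SOCS2 203373_at against IgG IP (unadjusted p = 0.21). Nor was it for SOCS3 206360_s_at against Total RNA (unadjusted p = 0.39). For IgG IP against Total RNA no interaction was fitted, so the SOCS1 difference was not tested. SOCS1 209999_x_at had IgG IP minus Total RNA of -0.68 and -0.34 with the control vector and 0.38 and 1.57 with miR-21, a difference of 1.48 between the means. SOCS2 203373_at had AGO2 IP minus IgG IP of -1.66 and -0.23 with the control vector and 0.11 and 0.02 with miR-21, a difference of 1.01. SOCS3 206360_s_at had AGO2 IP minus Total RNA of 0.27 and 0.02 with the control vector and -0.06 and -0.37 with miR-21, a difference of -0.36.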

How the results depend on the processing

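Without a replicate term 0 probe sets were called in any comparison of fractions, and the replicate block gave 3191 for AGO2 IP against Total RNA (7 SOCS family members) and 600 for IgG IP against Total RNA; it changed no other call. Median centring gave 1 and 3, cyclic loess 1 and 1, and centring with the replicate block 2907 (6 members) and 538. Leaving out the 2 arrays of replicate 2, with the block, gave 1020 for AGO2 IP against IgG IP (5 members), 4591 against Total RNA (12 members) and 196 for IgG IP against Total RNA. Replicate 1 alone gave 3460 (8 members), 7493 (9 members) and 619, and replicate 2 alone 7610 (8 members) for AGO2 IP and 6695 (8 members) for IgG IP against Total RNA. With the block and 1 probe set per gene, 2051 (2 members) and 246 were called. Each array left out in turn with the block gave 139 to 5147 (0 to 10 members) for AGO2 IP against Total RNA and 49 to 1153 (0 to 1 member) for IgG IP. Causes were not tested. No value of a member turned its direction past the threshold. The fits that leave out an array with the block, and cyclic loess, no filter and 1 probe set per gene with the block, were added after seeing the data; a lone array is there assumed to vary like the others.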
